A study of Mus musculus with 2 samples.

Results

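The circadian clock genes described here are 10 transcripts of the mouse: the activators Clock, Arntl (the older symbol of Bmal1) and Npas2, the repressors Per1, Per2, Per3, Cry1 and Cry2, and the output factors Dbp and Tef. They were picked out by gene symbol, with no threshold on a measured value, though the list was drawn up with earlier results of these data known. All 10 were found among the 22740 genes of the deposited table. RNA sequencing of whole uteri gave their levels in 2 C57BL/6 mice, titled WT1 and WT2, at pregnancy day 4, with 1 library for each mouse. The labels name no treatment or altered gene and the animals form 1 group, so the data give the level of each gene and the difference between 2 uteri. These titles give the names uterus 1 and uterus 2. The hour of tissue collection is not given in the sources used here.

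The clock is a feedback loop of transcription that runs with a period of about a day in most mammalian cells. CLOCK or its relative NPAS2 pairs with ARNTL and binds E-box elements, which switches on the Per and Cry genes, and the PER and CRY proteins then enter the nucleus and block the activators. The same activators drive Dbp, and the nuclear receptors of the REV-ERB and ROR families feed back on Arntl. In a tissue with a running clock, Arntl and the Per, Dbp and Nr1d1 transcripts peak at different hours, so a single collection samples 1 phase of the cycle. Levels below are the authors' RPKM (reads scaled to transcript length and library size), which is scaled per length and therefore allows comparison between genes.

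The reads recovered from the RPKM values totalled 3880195 (uterus 1) and 4311225 (uterus 2). These sums exceed the totals used for scaling, 3834174 and 4256101, and the reason for the excess was not tested. All 15 markers of uterine tissue fixed for the check were detected at 1 RPKM in both uteri, from Ptprc at 19.7 RPKM to Col1a1 at 1017 RPKM, with Pgr at 72.0 and Esr1 at 103 RPKM. Their levels summed to 3450 (uterus 1) and 3188 RPKM (uterus 2). The 8 ovary and oviduct markers summed to 20.1 and 22.2 RPKM, with Cyp19a1 and Zp3 listed at 0 in both. Of these 8, 3 were detected at 1 RPKM in both uteri: Foxl2 at 8.59 and 7.83 RPKM, Ovgp1 at 5.78 and 9.31 RPKM and Star at 2.93 and 3.87 RPKM. The 5 fat markers summed to 0.0801 and 0.123 RPKM, with Adipoq, Cidec and Retn listed at 0. The 5 liver markers summed to 26.7 and 5.50 RPKM, with Serpina1e at 22.4 RPKM in uterus 1 and listed at 0 in uterus 2. Ttr, the 1 liver marker detected at 1 RPKM in both uteri, lay at 4.27 and 5.39 RPKM on 20 and 28 reads. Apoa1 and Cyp3a11 were listed at 0. A listed 0 in a file of RPKM is not read as absence. The part of these other tissues in the values below was not tested. A whole uterus mixes epithelium, stroma, muscle and vessels, and in such a bulk sample fewer cells of a type and less RNA per cell cannot be told apart.

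All 10 clock genes were detected at 1 RPKM or more in both uteri, where 58.4% of all genes in the table were. Their mean levels ran from 4.28 RPKM for Dbp to 25.7 RPKM for Clock, with a median of 6.83 RPKM. Clock stood at the 83.8th percentile of genes above 0 and Dbp at the 39.3rd. Among genes averaging 1 RPKM or more the median level was 11.0 RPKM, so Clock and Tef were above that level and the other 8 members below it.

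**Figure D1:**
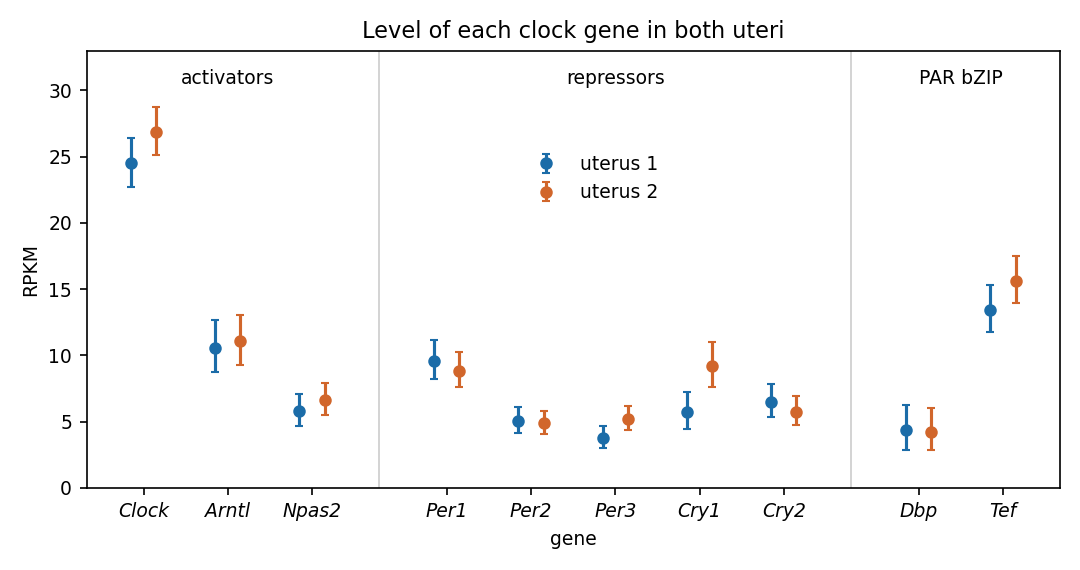
RPKM of each clock gene in uterus 1 (blue) and uterus 2 (orange), with 95% exact Poisson intervals on the recovered reads, which cover counting error only. Clock is highest in both uteri at 24.5 and 26.9 RPKM, and Cry1 has the widest gap between the uteri, 5.71 against 9.19 RPKM.

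Clock encodes the basic helix-loop-helix PAS activator that partners ARNTL. The gene (NM_007715) lies on the minus strand of chromosome 5 from 76641202 to 76733573 in mouse build NCBIM37, and its annotated transcript has 23 exons. Clock lay at 24.5 (uterus 1) and 26.9 RPKM (uterus 2), on 703 and 855 reads, and its mean was 25.7 ± 1.66 RPKM (SD, n = 2). It was the highest of the 10 genes in both uteri, and its values did not overlap those of any other member. Npas2 (NM_008719, chromosome 1, 39251117 to 39420085) encodes the PAS protein that can stand in for CLOCK. Npas2 lay at 5.80 (uterus 1) and 6.63 RPKM (uterus 2), on 93 and 118 reads. Per length, Clock exceeded Npas2 by 4.23-fold in uterus 1 (95% counting interval 3.40 to 5.30) and by 4.05-fold in uterus 2 (3.34 to 4.95). The surplus of Clock over its relative was thus of like size in both animals. From annotated coding sequences, the CLOCK and NPAS2 proteins (855 and 816 residues) share 54.0% of aligned residues.

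Arntl (NM_007489, chromosome 7, 120350979 to 120457640) encodes the obligate partner of both. Arntl lay at 10.6 (uterus 1) and 11.1 RPKM (uterus 2), on 118 and 137 reads, with a mean of 10.8 ± 0.344 RPKM (SD, n = 2). Arntl followed Clock and Tef in both uteri. Clock was 2.32-fold above Arntl in uterus 1 (95% counting interval 1.90 to 2.84) and 2.43-fold above it in uterus 2 (2.02 to 2.93). The 3 activators summed to 40.9 and 44.6 RPKM, which is 45.8% and 45.3% of the summed level of all 10 members.

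Among the repressors, Per1 was highest on average. Per1 (NM_011065, chromosome 11, 68912458 to 68923459), the PER gene known for fast induction by hormones and light signals, lay at 9.60 (uterus 1) and 8.85 RPKM (uterus 2), on 173 and 177 reads. Per2 (NM_011066, chromosome 1, 93312559 to 93355905), which encodes the PER protein whose loss disrupts behavioural rhythm, lay at 5.05 and 4.87 RPKM on 113 and 121 reads. Per2 had the closest agreement between animals among the PER genes, with a mean of 4.96 ± 0.126 RPKM (SD, n = 2). Per3 (NM_011067, chromosome 4, 150377764 to 150418731), the PER gene least needed for the core loop, lay at 3.77 (uterus 1) and 5.21 RPKM (uterus 2) on 86 and 132 reads. The Per1 level was 1.90-fold that of Per2 in uterus 1 (95% counting interval 1.49 to 2.43) and 1.82-fold in uterus 2 (1.43 to 2.31). Per2 was 1.34-fold Per3 in uterus 1 (1.00 to 1.80) and 0.935-fold in uterus 2 (0.724 to 1.21), so those 2 genes changed places between the animals.

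The cryptochromes are flavoprotein relatives of photolyases that bind CLOCK and ARNTL and give the loop its strongest repression. Cry1 (NM_007771, chromosome 10, 84594445 to 84647799, 13 exons) lay at 5.71 (uterus 1) and 9.19 RPKM (uterus 2), on 66 and 118 reads. Its mean of 7.45 ± 2.46 RPKM (SD, n = 2) had the largest SD of the 10 members. Cry2 (NM_009963, chromosome 2, 92243804 to 92274226) lay at 6.51 (uterus 1) and 5.76 RPKM (uterus 2), on 109 and 107 reads. The Cry1 to Cry2 ratio was 0.877 in uterus 1 (95% counting interval 0.636 to 1.20) and 1.60 in uterus 2 (1.22 to 2.09). Cry1 was thus the lower cryptochrome in uterus 1 and the higher in uterus 2, and only in uterus 2 did the interval leave out equal levels. The CRY1 and CRY2 proteins (606 and 592 residues) share 73.5% of aligned residues, the highest identity among the 7 pairs of members aligned. No stretch of 50 bases of the Cry1 transcript occurs in another annotated protein-coding gene, so exact copies of that length between Cry1 and Cry2 are absent.

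Summed over each arm, the 5 repressors held 30.6 (uterus 1) and 33.9 RPKM (uterus 2). The ratio of summed repressors to summed activators was 0.749 in uterus 1 and 0.760 in uterus 2, a mean of 0.755 ± 0.00796 (SD, n = 2). The PER genes summed to 18.4 and 18.9 RPKM and the CRY genes to 12.2 and 14.9 RPKM. The ratio of summed PER to summed CRY genes was 1.51 in uterus 1 and 1.27 in uterus 2. By point value the summed repressors and activators thus stood in nearly the same proportion in both animals. No counting interval was made for these ratios of sums, so how closely they are resolved was not tested.

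Dbp and Tef encode PAR bZIP factors, which bind D-box elements and carry the rhythm to metabolic and detoxification genes. Tef (NM_153484, chromosome 15, 81633103 to 81657293) lay at 13.5 (uterus 1) and 15.7 RPKM (uterus 2), on 230 and 297 reads, below Clock and above the other 8 genes in both uteri. Dbp (NM_016974, chromosome 7, 52960617 to 52965573), in many tissues one of the transcripts with the deepest daily swing, lay at 4.35 (uterus 1) and 4.20 RPKM (uterus 2). Those values rest on 28 and 30 reads, the fewest of any member, and their 95% counting intervals were 2.89 to 6.29 and 2.83 to 6.00 RPKM. Tef exceeded Dbp by 3.09-fold in uterus 1 (95% counting interval 2.08 to 4.76) and by 3.73-fold in uterus 2 (2.56 to 5.62). The end of Dbp overlaps Sphk2, a sphingosine kinase gene on the opposite strand, over 491 annotated exon bases, and 25.5% of the 50-base stretches of the Dbp transcript occur in Sphk2 read in antisense. Sphk2 lay at 10.3 and 8.13 RPKM. Use of strand in counting is not given in the sources used here, so reads of Dbp and of Sphk2 in the shared part cannot be told apart. The Dbp level, its place among the members and the Tef to Dbp ratio may therefore include reads of Sphk2. The counting intervals do not cover this. Cry2 overlaps the non-coding gene D930015M05Rik over 149 exon bases on the opposite strand, which lay at 1.97 and 1.58 RPKM. For the other 8 members no exon of another annotated gene overlapped.

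In the order of mean level, Clock, Tef, Arntl and Per1 came first, followed by Cry1, Npas2, Cry2, Per2, Per3 and Dbp. The ranges of neighbours over both uteri, which leave counting error aside, were compared first. The steps from Clock to Tef, from Tef to Arntl, from Arntl to Per1 and from Cry2 to Per2 had ranges that did not overlap, and the other 5 steps had ranges that did. With counting error included, the 95% intervals were apart in both uteri for 1 of the 9 steps, that from Clock to Tef, so the order of the other neighbours is not resolved step by step. Of all 45 pairs of members, 39 had ranges that did not overlap, and 25 had intervals apart in both uteri. The first 3 places were the same in both animals, whereas Cry1 was at place 7 in uterus 1 and place 4 in uterus 2.

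The difference between the animals was then measured for each gene. None of the 10 members was at least 2-fold apart, where 2.60% of the 13647 genes averaging 1 RPKM or more were. On the log2 scale with a pseudocount of 0.1 RPKM, 6 members were higher in uterus 2 and 4 in uterus 1. The median ratio of uterus 2 over uterus 1 was 0.10, against 0.00067 over all those genes. A two-sided exact binomial test on the recovered reads, adjusted by Benjamini-Hochberg over 15154 genes, called 1 of the 10 members different, against 4.93% of all genes tested. At an unadjusted p under 0.05, 2 of the 10 passed, against 16.0% of all genes. This test compares the 2 libraries and not conditions, and it counts only counting error.

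**Figure D2:**
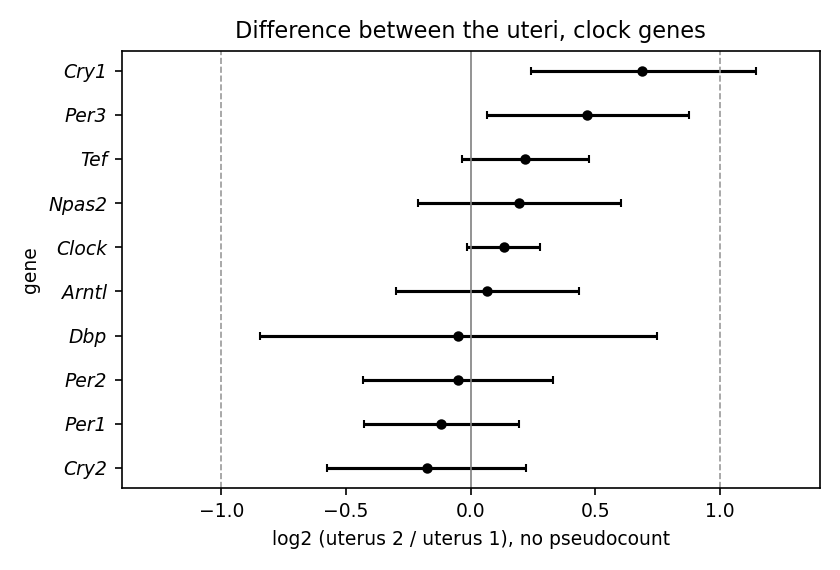
Log2 ratio of uterus 2 over uterus 1 for each clock gene without a pseudocount, with 95% exact intervals from the recovered reads. Dashed lines mark 2-fold. The intervals of Cry1 (0.24 to 1.14) and Per3 (0.06 to 0.88) leave out 0, and those of the other 8 genes include it.

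Cry1 was the member called. Its level in uterus 2 was 1.61-fold that in uterus 1 (95% counting interval 1.18 to 2.21), with an adjusted p of 0.0407 in the exact binomial test. The call did not hold when the spread between the libraries was counted too. Over 7397 genes with at least 100 reads in both, that spread was 6.50% per library beyond counting error, and an exact beta-binomial test that includes it gave Cry1 an adjusted p of 0.395. That test called 0 of the 10 members, against 0.409% of all genes tested. Per3 was 1.38-fold higher in uterus 2 (1.05 to 1.84), with an unadjusted p of 0.0209 and an adjusted p of 0.198 in the exact binomial test. Clock, on the most reads, had the tightest ratio, 1.10-fold (0.990 to 1.21). Tef was 1.16-fold (0.976 to 1.39), Npas2 1.14-fold (0.864 to 1.52) and Arntl 1.05-fold (0.812 to 1.35). Lower point values in uterus 2 were found for Per2 at 0.965-fold (0.740 to 1.26), Per1 at 0.922-fold (0.743 to 1.14) and Cry2 at 0.884-fold (0.671 to 1.17). The Dbp ratio of 0.965 had the widest interval, 0.557 to 1.68, which leaves out a 2-fold difference in either direction. That interval covers counting error only, and the part of Sphk2 reads in the Dbp ratio was not tested.

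Levels of the uterine tissue markers were set beside these differences. The exact binomial test called 6 of the 15 uterine markers different, 3 higher in each uterus, against 4.93% of all genes tested, and 11 had an unadjusted p under 0.05, against 16.0%. In uterus 1 these markers had 209 to 21332 reads, against 28 to 703 for the clock genes. With more reads this test calls smaller ratios, and the shares were not compared at equal reads. Krt18, a keratin of epithelium, was 1.34-fold higher in uterus 2, Vim, an intermediate filament gene of stroma, 1.17-fold, and Myh11, the smooth muscle myosin, 1.12-fold. Col1a1, a fibrillar collagen, was at 0.718 of its uterus 1 level in uterus 2, Pgr, the progesterone receptor, at 0.856 and Acta2, smooth muscle actin, at 0.907. The other markers of epithelium were not called and did not all go one way. Epcam and Krt8 were 1.27-fold and 1.13-fold higher in uterus 2, and Cdh1 was at 0.941 of its uterus 1 level. The exact beta-binomial test called 0 of the 15. Among the markers of other tissues, Ovgp1, an oviduct glycoprotein gene, was 1.61-fold higher in uterus 2. Its unadjusted p was 0.00485 and its adjusted p 0.0802 in the exact binomial test. Inhba, the other ovary and oviduct marker with an unadjusted p under 0.05 in that test, went the other way. Inhba lay at 1.54 and 0.307 RPKM on 9 and 2 reads, with an adjusted p of 0.246 in the same exact test. Of the liver markers, Serpina1e was higher in uterus 1 and was called by the exact binomial and the exact beta-binomial tests. Serpina1e has near-identical gene copies and is therefore uncertain. Ttr, the other liver marker tested, had the higher point value in uterus 2, at 1.26-fold (counting interval 0.686 to 2.36). Neither test called Ttr. The part of tissue composition in the Cry1 and Per3 differences was not tested.

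**Figure D3:**
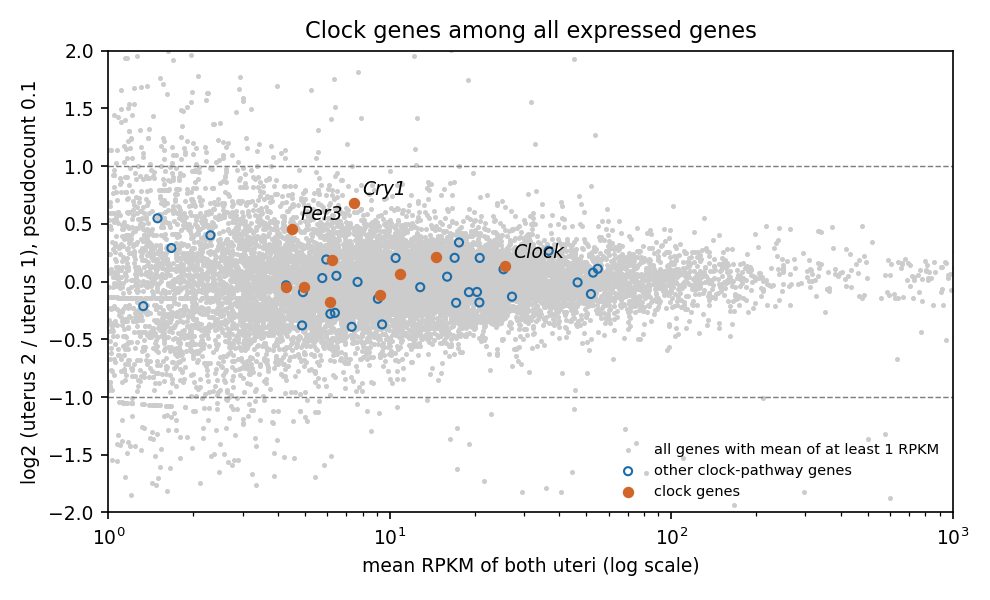
Log2 ratio between the uteri (pseudocount 0.1 RPKM) against mean RPKM on a log axis for genes averaging 1 RPKM or more (grey), the 10 clock genes (orange) and 33 other genes of the clock pathway (open blue circles). Dashed lines mark 2-fold. 103 genes beyond 1000 RPKM or a log2 ratio of 2 lie outside the axes, and every clock gene lies between the dashed lines.

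The promoter sequences of Cry1 and Per3, the 2 genes with the largest differences, are shown as examples of elements through which the loop is known to act. Other members carry such elements too, and a link between the elements and the differences was not tested. The 2 sequences are the 250 bases before the annotated start in RefSeq on build GRCm38.p6, which is a later build than that of the coordinates above. Capitals mark exact matches to the motifs searched, and the text runs 5′ to 3′ along the gene.
Cry1 (chr10:85185055-85185304, minus strand, 250 bases): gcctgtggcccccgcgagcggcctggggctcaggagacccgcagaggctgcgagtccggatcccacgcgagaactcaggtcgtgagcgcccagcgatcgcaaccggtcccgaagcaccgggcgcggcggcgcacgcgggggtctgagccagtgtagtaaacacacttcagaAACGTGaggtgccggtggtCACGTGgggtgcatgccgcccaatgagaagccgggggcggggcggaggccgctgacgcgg
Per3 (chr4:151044666-151044915, minus strand, 250 bases): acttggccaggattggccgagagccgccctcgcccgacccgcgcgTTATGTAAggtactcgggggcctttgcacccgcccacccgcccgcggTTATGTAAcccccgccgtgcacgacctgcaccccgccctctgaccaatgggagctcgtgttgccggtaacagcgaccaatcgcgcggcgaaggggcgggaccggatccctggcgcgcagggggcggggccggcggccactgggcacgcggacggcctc
The Cry1 stretch holds the E-box CACGTG, first base 60 before the start, and the variant CACGTT on the other strand, 79 before it. The Per3 stretch holds the D-box TTATGTAA 2 times, with first bases 205 and 158 before the start. D-boxes are the sites bound by DBP and TEF, and E-boxes those bound by CLOCK and ARNTL. No promoter activity or binding was measured here.

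Promoter windows from 250 bases before to 50 after the start were found for 9 of the 10 members (not for Per2), in 14 windows, and all 32851 windows of the RefSeq table served as the background. Both strands were searched for the E-box CACGTG, its variant CACGTT, the D-box TTATGTAA, its palindromic form TTACGTAA, the ROR and REV-ERB core AGGTCA and the cyclic AMP response element TGACGTCA, and no matches in the members' windows overlapped each other. CACGTG was found for Per1, Cry1 and Tef, 3 of the 9 members, and in 8.09% of 27025 genes. CACGTT was found for Cry1 and Cry2 and in 5.44% of genes. TTATGTAA was found for Per3 alone among the members and in 1.11% of genes. AGGTCA was found for Clock, Arntl and Per1 and in 18.1% of genes, and the palindromic D-box and the cyclic AMP response element for no member and in 0.126% and 2.03% of genes. Shorter stretches around the matches before the start are given for 3 further members: Per1, with both an E-box and an AGGTCA core, Tef, with an E-box at each of its annotated starts, and Cry2, with the E-box variant on the other strand.
Per1 (chr11:69098768-69098832, plus strand, 65 bases): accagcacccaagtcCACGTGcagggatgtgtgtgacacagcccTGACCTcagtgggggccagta
Tef first window (chr15:81802531-81802566, plus strand, 36 bases): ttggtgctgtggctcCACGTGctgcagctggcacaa
Tef second window (chr15:81811261-81811296, plus strand, 36 bases): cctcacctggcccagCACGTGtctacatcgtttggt
Cry2 (chr2:92434215-92434250, minus strand, 36 bases): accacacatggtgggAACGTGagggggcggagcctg
In the Per1 stretch CACGTG begins 166 bases before the start and TGACCT, the reverse complement of AGGTCA, 137 before it. The matches describe letters in these windows and were not related to the levels by any test.

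The other genes of the pathway were taken from 3 lists of 34 genes in all. Of these, 33 were detected at 1 RPKM in both uteri, 0 were at least 2-fold apart, and the exact binomial test with Benjamini-Hochberg adjustment over all genes called 0, with 6 at an unadjusted p under 0.05 and 0 called by the exact beta-binomial test. Over all genes the shares were 2.60% at least 2-fold apart, 4.93% called by the exact binomial test, 16.0% at an unadjusted p under 0.05 and 0.409% called by the exact beta-binomial test.

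The first list held 10 transcription factors around the core loop, with a median of 6.05 RPKM. Nr1d1 and Nr1d2, which encode the REV-ERB repressors of Arntl, lay at 6.75 and 5.55 RPKM and at 13.0 and 12.6 RPKM in uterus 1 and uterus 2. Rora and Rorb, which encode opposing ROR activators, had means of 6.46 ± 0.162 and 9.07 ± 0.669 RPKM (SD, n = 2). Nfil3, a bZIP repressor that competes with DBP and TEF for D-boxes, was highest at 28.4 and 25.9 RPKM, above both of those genes in each uterus. Hlf, the remaining PAR bZIP gene, lay at 4.33 and 4.23 RPKM, close to Dbp. Arntl2, the relative of Arntl, had a mean of 5.95 ± 0.566 RPKM, below Arntl in both uteri. Bhlhe40 and Bhlhe41 encode the DEC repressors that compete at E-boxes. Bhlhe40 lay at 5.53 and 4.23 RPKM, and Bhlhe41 at 0.468 and 0.537 RPKM on 11 and 14 reads, the one gene of the 34 below 1 RPKM. Gm129, the older symbol of Ciart, a repressor of the ARNTL complex, lay at 1.50 and 1.85 RPKM on 8 and 11 reads.

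The second list held 15 kinases, ubiquitin ligases and partners that act on clock proteins, with means from 1.49 to 52.8 RPKM. The casein kinase genes Csnk1d and Csnk1e, whose products phosphorylate PER proteins, lay at 46.6 and 46.4 RPKM and at 15.8 and 18.2 RPKM. The casein kinase 2 genes Csnk2a1 and Csnk2b had the highest means of this list, 52.8 and 51.9 RPKM. Fbxl21, an F-box gene whose product binds CRY proteins, lay at 1.19 and 1.79 RPKM on 9 and 15 reads. Btrc and Fbxw11, which encode the F-box proteins that bind phosphorylated PER, had means of 4.91 and 20.4 RPKM. Cipc, listed under the older symbol 2310044G17Rik and encoding a CLOCK inhibitor, lay at 7.69 and 7.67 RPKM. Gsk3b, with 22.1 and 19.5 RPKM, and Usp2, a deubiquitinase gene with 8.33 and 6.32 RPKM, reached unadjusted p-values of 0.0196 and 0.029 in the exact binomial test and adjusted ones of 0.19 and 0.237. Prkaa1, a catalytic subunit gene of AMP-activated kinase, went the other way, with 19.4 and 22.4 RPKM, an unadjusted p of 0.0498 and an adjusted p of 0.313 in the same exact test.

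**Figure D4:**
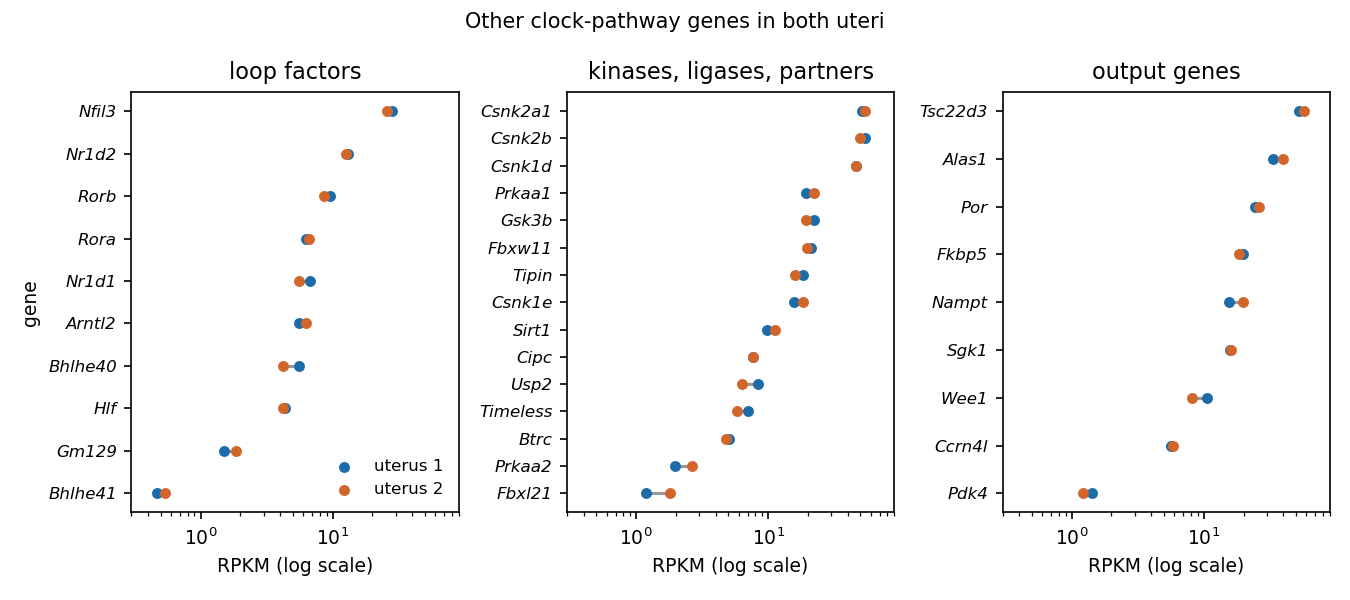
RPKM on a log axis of 34 other genes of the clock pathway in uterus 1 (blue) and uterus 2 (orange), in 3 lists: transcription factors around the loop, enzymes and partners of clock proteins, and clock-controlled output genes. Grey bars join the uteri. Levels run from Bhlhe41, below 1 RPKM, to Tsc22d3, highest by its mean of 54.8 RPKM.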

How the data were processed

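RNA of whole uterus from 2 animals was sequenced after TRIzol extraction, poly-A selection and TruSeq library preparation, per the labels' protocols. The authors deposited RPKM values, 1 column per animal, and the 2 tables hold identical values for all 22740 shared genes. The submitters' processing notes name TopHat, edgeR and mm9 (the same assembly as NCBIM37) without versions. The annotation and use of strand are not given in the sources used here.

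Coordinates come from the annotated deposited table, counted from 1. Reads behind the RPKM were recovered: genes with equal reads fix the ratio of the scaling totals (3834174 and 4256101), single-exon genes fix their size, and the remaining factor per gene was the one that made the implied transcript length whole (within 0.02 bases) and closest to the GENCODE M1 transcript with the most similar span. All of 209 and 217 values of single-exon genes were whole within 0.01 reads. For 1217 genes without an annotated length the smallest reads giving a whole length were used. Both steps were run on simulated libraries, and the outcome is not reported here. Where PCR copies occur, reads are not independent molecules, so intervals cover counting error only.

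Ratios used a pseudocount of 0.1 RPKM, which understates changes of low genes. The exact binomial test took genes with at least 6 reads in sum. The named genes are the 10 members, the pathway lists and the tissue markers, with older symbols matched through RefSeq names (GRCm38.p6). Sphk2 and D930015M05Rik were named after exon overlap was seen. The members and lists were chosen with earlier results of these data known. Protein identity came from global alignment (BLOSUM62) of translated GENCODE M1 coding sequences. Alternatives covered the pseudocount, filters, centring, read recovery, each library alone and the beta-binomial test, which was chosen after seeing the data. Some genes of the pathway lists are not reported here. Python 3.11.15, SciPy 1.17.1 and Biopython 1.88 were used.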

Additional observations from a re-analysis of the deposited data

How the results depend on the processing

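The count of members called different was 1 with the exact binomial test and 0 with the smallest possible reads or with the exact beta-binomial test, which was added after seeing the data. The smallest possible reads lower the 66 and 118 reads of Cry1 to 33 and 59 by construction, and its adjusted p became 0.323. Of 60 alternatives to the 10 ratios, 58 left both sign and call as they were, and the other 2 were those of Cry1. Its log2 ratio ran from 0.60 to 0.69 over pseudocounts and centring, and its adjusted p from 0.0407 to 0.395 over all alternatives. The counts of members detected (10) and at least 2-fold apart (0) were the same under every threshold, filter and pseudocount tried and in either library alone, where that applied. Either library alone lies within 1 SD of a 2-library mean whatever the data, so that alternative is uninformative for levels. No paired analysis was possible because both libraries belong to a single group. Depth limits Dbp most, with 28 and 30 reads, and an unknown share of these may come from Sphk2 where the exons overlap.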

Other observations

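The third list held 9 genes known in other tissues as outputs of the clock, all detected at 1 RPKM in both uteri, with a median of 17.6 RPKM. Tsc22d3, a glucocorticoid-induced leucine zipper gene, was highest at 52.7 (uterus 1) and 56.9 RPKM (uterus 2). Alas1, the first enzyme of haem synthesis, lay at 33.3 and 40.1 RPKM, 1.04-fold to 1.39-fold higher in uterus 2 by its 95% counting interval, with an adjusted p of 0.12 in the exact binomial test. Por, the electron donor of cytochrome P450 enzymes, lay at 24.4 and 26.3 RPKM. Nampt, the rate-limiting enzyme of NAD salvage, lay at 15.5 and 19.7 RPKM on 271 and 381 reads, 1.08-fold to 1.49-fold higher in uterus 2 by its 95% counting interval, with an adjusted p of 0.0558 in the exact binomial test. Wee1, a kinase that holds cells before mitosis, lay at 10.6 and 8.18 RPKM, with an adjusted p of 0.278 in the same exact test. Fkbp5 had a mean of 19.1 RPKM, Sgk1 15.98 RPKM, Ccrn4l (the older symbol of Noct, a nocturnin) 5.76 RPKM and Pdk4 1.33 RPKM. Of the 9 genes, 6 were higher in uterus 2 and 3 in uterus 1, against 6842 and 6805 of all genes averaging 1 RPKM or more. The exact binomial test called 0 of the 9, against 4.93% of all genes tested, with 3 at an unadjusted p under 0.05, against 16.0%. The exact beta-binomial test also called 0.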
